A study of Mus musculus with 14 samples.

Results

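This account covers 35 mouse genes of the sarcomere, the contractile unit of striated muscle, and of its Z-disc, the plate that anchors the actin filaments. They were taken by gene symbol from a table of 33459 gene IDs, and all 35 were found in it: 3 myosin heavy chains, 9 thin filament genes, 7 thick filament and M-band genes, 12 genes of the Z-disc and its chaperones, and 4 stress-linked or intercalated disc genes. Messenger RNA was sequenced from the heart and the gonadal white fat (gWAT) of FHL2-/- mice (KO) and of wild-type mice (WT). All were on the C57BL/6 background, were 21 weeks old and had been on a high-fat diet for 8 weeks, so no group without this diet enters any comparison. There were 4 KO and 4 WT hearts, numbered 1 to 4 in each genotype, and 3 KO and 3 WT gWAT samples, numbered 1, 3 and 4. The labels do not give the sex, the part of the heart taken, the part of Fhl2 that was removed, or whether each library stands for a separate animal, so a p-value reflects only how much these samples vary.

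In each sarcomere, thick filaments of myosin slide along thin filaments of actin when calcium binds the troponin complex. Thin filaments end in the Z-disc, thick filaments are tied together at the M-band, and titin spans from the Z-disc to the M-band. Several of these proteins exist as a form that is usual in the adult mouse heart and a form of the fetal or overloaded heart, such as the Myh6 and Myh7 myosins and the Actc1 and Acta1 actins. FHL2 is a LIM-domain protein that binds titin in the sarcomere and also binds serum response factor, a transcription factor of muscle genes that recognises the CArG box. The question put to the data was which of the 35 genes differed between KO and WT hearts, in all numbers and within the number sets, and what level they had in gWAT.

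The isoform pairs differ in the DNA just before their RefSeq start sites. The 250 bases before the RefSeq start (GRCm38.p6 build, read 5′ to 3′ on the gene's strand, which is the minus strand for all 4 genes) are shown for both actins and both main myosins because their values are compared below in the same hearts. Capitals mark the CArG box (CCAAATATGG, CCAAATAAGG) and the MCAT element (CATTCC, or GGAATG when read on the other strand), which is bound by TEAD factors. The windows are chr8:123894776-123895025 for Acta1, chr2:114052876-114053125 for Actc1, chr14:54994627-54994876 for Myh7 and chr14:54966608-54966857 for Myh6. The gene spans given below come from GENCODE, and their starts can differ from those of RefSeq. The windows of Actc1 and Myh6 lie inside these spans, and the start of Acta1 differs too.
Acta1: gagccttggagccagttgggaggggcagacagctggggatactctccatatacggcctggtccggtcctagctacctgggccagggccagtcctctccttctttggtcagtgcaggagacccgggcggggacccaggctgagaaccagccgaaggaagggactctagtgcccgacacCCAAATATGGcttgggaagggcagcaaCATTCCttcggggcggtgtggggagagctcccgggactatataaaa
Actc1: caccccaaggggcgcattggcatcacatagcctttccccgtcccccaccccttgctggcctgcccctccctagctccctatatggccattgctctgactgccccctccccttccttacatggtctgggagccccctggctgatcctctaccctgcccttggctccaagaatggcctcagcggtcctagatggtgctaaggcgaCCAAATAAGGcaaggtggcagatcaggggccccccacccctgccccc
Myh7: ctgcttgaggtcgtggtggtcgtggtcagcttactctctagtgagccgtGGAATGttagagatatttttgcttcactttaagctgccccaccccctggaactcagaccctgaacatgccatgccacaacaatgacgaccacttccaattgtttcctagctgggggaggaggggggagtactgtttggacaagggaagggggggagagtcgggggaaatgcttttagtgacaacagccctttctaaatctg
Myh6: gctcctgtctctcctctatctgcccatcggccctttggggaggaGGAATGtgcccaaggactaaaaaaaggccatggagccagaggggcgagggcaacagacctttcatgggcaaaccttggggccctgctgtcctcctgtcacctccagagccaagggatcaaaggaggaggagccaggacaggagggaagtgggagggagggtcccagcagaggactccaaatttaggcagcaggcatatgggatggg

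Counted back from the RefSeq start, the CArG box begins at base −73 in Acta1 and −47 in Actc1. The MCAT element begins at base −46 in Acta1, −201 in Myh7 and −206 in Myh6. Of the 35 genes 30 had a promoter in the RefSeq table, in 42 windows. A CArG box was found on either strand before 6 of the 30 genes (Acta1, Actc1, Ldb3, Myl3, Myom1 and Nebl), in 7 windows, while 1.47% of all 32851 windows held it. MCAT was found before 13 of the genes, in 13 of the 42 windows, against 12.6% of all windows. A MEF2 site lay before 5 genes, in 6 windows, against 2.92%, and TATAAA before 2 genes, in 2 windows, against 12.4%. These matches, which may overlap between motifs, are descriptions of letters and carry no test.

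The 3 myosin heavy chain genes each hold a microRNA in an intron, shown here because reads of the host genes are compared and the capitals show what the microRNAs share. Capitals are the seed, bases 2 to 8, which miR-208a and miR-208b share and which is not identical in miR-499. The mature forms lie at chr14:54949072-54949093 in Myh6, chr14:54975710-54975731 in Myh7 and chr2:155622893-155622913 in Myh7b (RefSeq, GRCm38.p6). The libraries were made with an mRNA kit, and mature microRNA levels were not analysed here.
mmu-miR-208a-3p: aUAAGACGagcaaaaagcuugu
mmu-miR-208b-3p: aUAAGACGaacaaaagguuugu
mmu-miR-499-5p: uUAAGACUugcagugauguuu

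Library totals were 10835092 to 13272412 counts in heart and 15105019 to 16040188 in gWAT. Fhl2 counts in heart were 34.8, 28.6, 37.8 and 34.7 CPM (counts relative to library size, with the libraries of a tissue scaled by the TMM method) in KO, against 1031, 1068, 1294 and 1396 CPM in WT. In gWAT they were 0.462, 0.257 and 0.451 CPM in KO and 4.35, 6.26 and 5.70 CPM in WT, and both tissues' falls passed the edgeR test (log2 fold change −5.14 ± 0.14 in heart, adjusted p = 1.995e-08, and −3.78 ± 0.31 in gWAT, adjusted p = 0.0101). Libraries of hearts 1 and 2 stood apart from those of hearts 3 and 4 in atrial cardiomyocyte markers: the summed level of the 9 markers was 4468, 4882, 638 and 1021 CPM in KO hearts 1 to 4 and 4169, 3503, 143 and 187 CPM in WT hearts 1 to 4, and no marker was at 0. The list was Myl7, Myl4, Sln, Nppa, Bmp10, Dkk3, Stard10, Fam78a and Upk3b. Not every marker showed this split: Fam78a was at 14.6 to 23.2 CPM over all hearts. Upk3b is also on the list of mesothelial markers used below. KO heart 1 also stood apart in long transcripts, with a difference of −0.284 between the median log2 deviation of 796 genes with transcripts of at least 8000 bases and that of 2113 genes with transcripts of at most 1500 bases. In the other 7 hearts this difference was between −0.0281 and 0.11.

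The share of heart reads taken by the 35 genes together differed between the genotypes by less than the spread between KO hearts. They held 6.05, 6.32, 5.83 and 6.45% of the reads in KO hearts 1 to 4 and 6.05, 6.04, 5.92 and 5.93% in WT hearts, which is 6.16 ± 0.277% in KO and 5.99 ± 0.0681% in WT (SD, n = 4 each). The KO values lay on both sides of the WT values. Of reads outside the mitochondrial genome the share was 8.78 ± 0.436% in KO and 8.75 ± 0.269% in WT. Thin filament genes held the most, 2.13 ± 0.107% in KO and 2.15 ± 0.0787% in WT, followed by the thick filament and M-band genes with 1.86 ± 0.138% in KO and 1.79 ± 0.122% in WT. Myosin heavy chains held 1.18 ± 0.135% in KO and 1.07 ± 0.0652% in WT, nearly all of it Myh6. The 5 most abundant members of each heart library took 55.9 to 58.5% of all members' reads. In whole tissue, fewer cells of a type and less RNA per cell cannot be told apart, and this holds for every level given here.

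**Figure D1:**
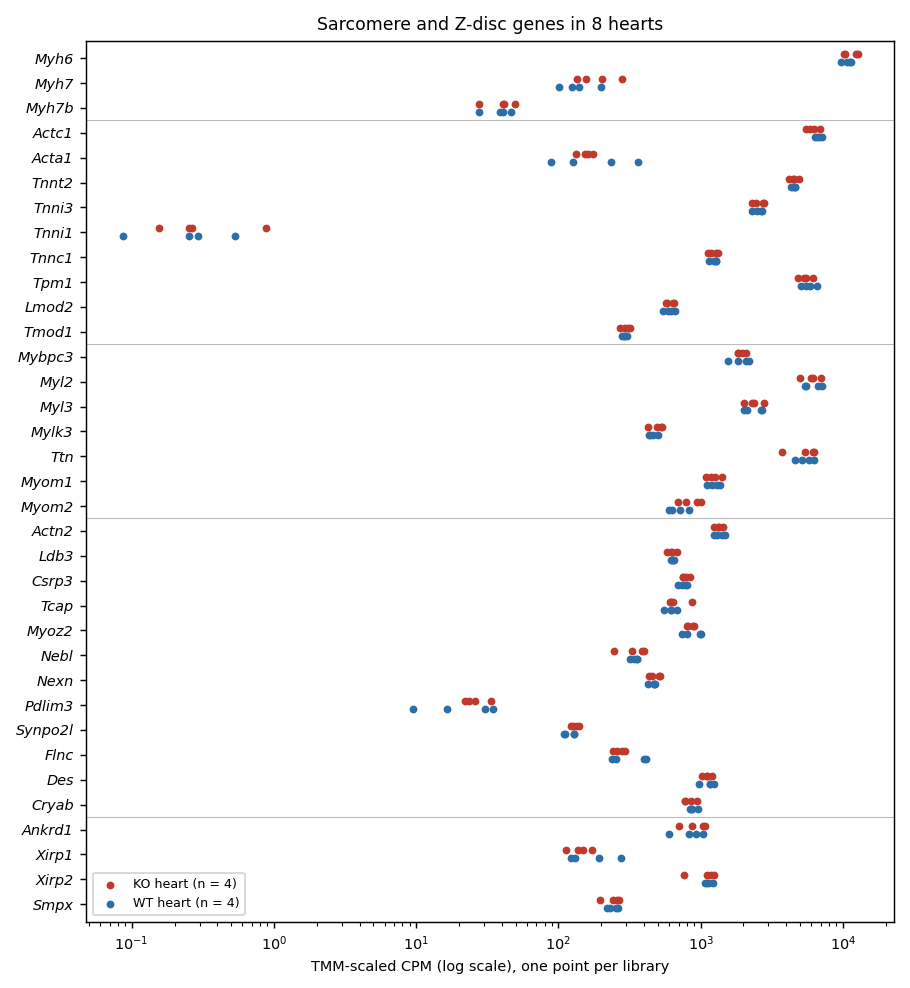
Level of each of the 35 genes in CPM on a log scale, with a point per library for 4 KO and 4 WT hearts, ordered by role with grey lines between roles. The ranges of the KO and WT points overlap for every gene, and the WT points of Acta1 spread from 88.7 to 366 CPM.

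Levels of different genes are compared here per length, as RPKM, which is the CPM per kilobase of all annotated exons (mean ± SD, n = 4 hearts each). Actc1, the cardiac actin, was the highest at 3792 ± 384 RPKM in KO and 4163 ± 206 RPKM in WT. Myl2, the ventricular regulatory myosin light chain, followed with 3093 ± 434 RPKM in KO and 3165 ± 440.4 RPKM in WT, and Myh6, the fast heavy chain of the adult mouse heart, with 1692 ± 195 RPKM in KO and 1599.7 ± 112 RPKM in WT. By level per length Actc1, Myl2 and Myh6 ranked 15, 17 and 23 among all genes in WT heart. Taking the longest transcript as the length put Myl2 above Actc1, at rank 11. It also put Tnni3 (rank 18), Myl3 (rank 22) and Tpm1 (rank 23) above Myh6 (rank 26), so the order depends on the length chosen.

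By the length of all annotated exons, the next levels belonged to the troponin complex and the essential light chain. Tnni3, the inhibitory troponin, had 1244 ± 114 RPKM in KO and 1231 ± 88.6 RPKM in WT. Tnnc1, the calcium-binding troponin, had 1178 ± 81.1 RPKM in KO and 1189.6 ± 58.1 RPKM in WT, and Myl3, the essential light chain, had 1160.2 ± 157 RPKM in KO and 1160.2 ± 177 RPKM in WT. These 3 genes could not be ordered, since the ranges of their WT hearts overlap. Tpm1, the tropomyosin that covers the myosin sites on actin, had 841 ± 83.6 RPKM in KO and 890.0 ± 96.8 RPKM in WT, and Tnnt2, the troponin that binds tropomyosin, 583 ± 37.3 RPKM in KO and 579.7 ± 19.2 RPKM in WT.

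Among the Z-disc genes and chaperones, Tcap, the titin cap, had 722 ± 129.9 RPKM in KO and 653 ± 58 RPKM in WT, and Cryab, a small heat shock protein, 567 ± 54.7 RPKM in KO and 598 ± 36.1 RPKM in WT. Actn2, the actinin that crosslinks actin at the Z-disc, had 353 ± 21.6 RPKM in KO and 358 ± 29.2 RPKM in WT. Desmin, the intermediate filament around Z-discs, encoded by Des, had 296 ± 18.7 RPKM in KO and 301 ± 31.2 RPKM in WT. Csrp3 (muscle LIM protein) and Myoz2 (a calcineurin-binding Z-disc protein) averaged 294 and 247 RPKM in KO and 280.4 and 259 RPKM in WT. Nexn, an actin-binding protein, and Ldb3, a PDZ-LIM protein, averaged 125 and 103 RPKM in KO and 120.3 and 104 RPKM in WT. The lowest of this role were Synpo2l with 28.2 ± 1.6 RPKM in KO and 25.8 ± 2.3 RPKM in WT, Nebl, the nebulin-like nebulette, with 22.4 ± 4.58 RPKM in KO and 22.5 ± 1.11 RPKM in WT, and Pdlim3, another PDZ-LIM protein, with 5.09 ± 0.985 RPKM in KO and 4.42 ± 2.3 RPKM in WT. Most members thus lay well above these, with 23 of 35 over 100 RPKM in WT heart.

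Mybpc3, the cardiac myosin-binding protein C, averaged 462 RPKM in KO and 461 RPKM in WT. The leiomodin Lmod2 and the tropomodulin Tmod1, which act at the pointed ends of actin filaments, averaged 309.8 and 75.5 RPKM in KO and 305 and 73.9 RPKM in WT. Mylk3, the cardiac myosin light chain kinase, averaged 115 RPKM in KO and 107 RPKM in WT. Titin, the product of Ttn, is very long, so that 5394 ± 1165 CPM in KO and 5455 ± 699 CPM in WT corresponded to 46.2 ± 9.97 RPKM in KO and 46.7 ± 5.98 RPKM in WT. In KO heart 1, the library with fewer reads from long transcripts, Ttn had 3742 CPM, the lowest of the 8 hearts. The stress-linked Ankrd1 had 318 ± 58.1 RPKM in KO and 295 ± 64.6 RPKM in WT, and Smpx, a small muscle protein, 106 ± 14 RPKM in KO and 107 ± 8.9 RPKM in WT.

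No member passed the edgeR quasi-likelihood test between KO and WT hearts (Benjamini-Hochberg adjusted p under 0.05): 0 of 34 tested members, beside 0.00706% of all 14159 genes tested, which is Fhl2 alone. DESeq2 and limma-voom called 0 members too. At an unadjusted p under 0.05 edgeR gave 1 of 34, Myom2, beside 3.2% of all genes. Tnni1 had too few reads to be tested. In 0 of 35 members were all KO hearts above or below all WT hearts, beside 2.41% of tested genes. The fold changes were small: 28 of 34 lay within 0.15 of 0 on the log2 scale, 23 of them within 0.1, 0 lay beyond 0.5, and the median was −0.01.

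**Figure D2:**
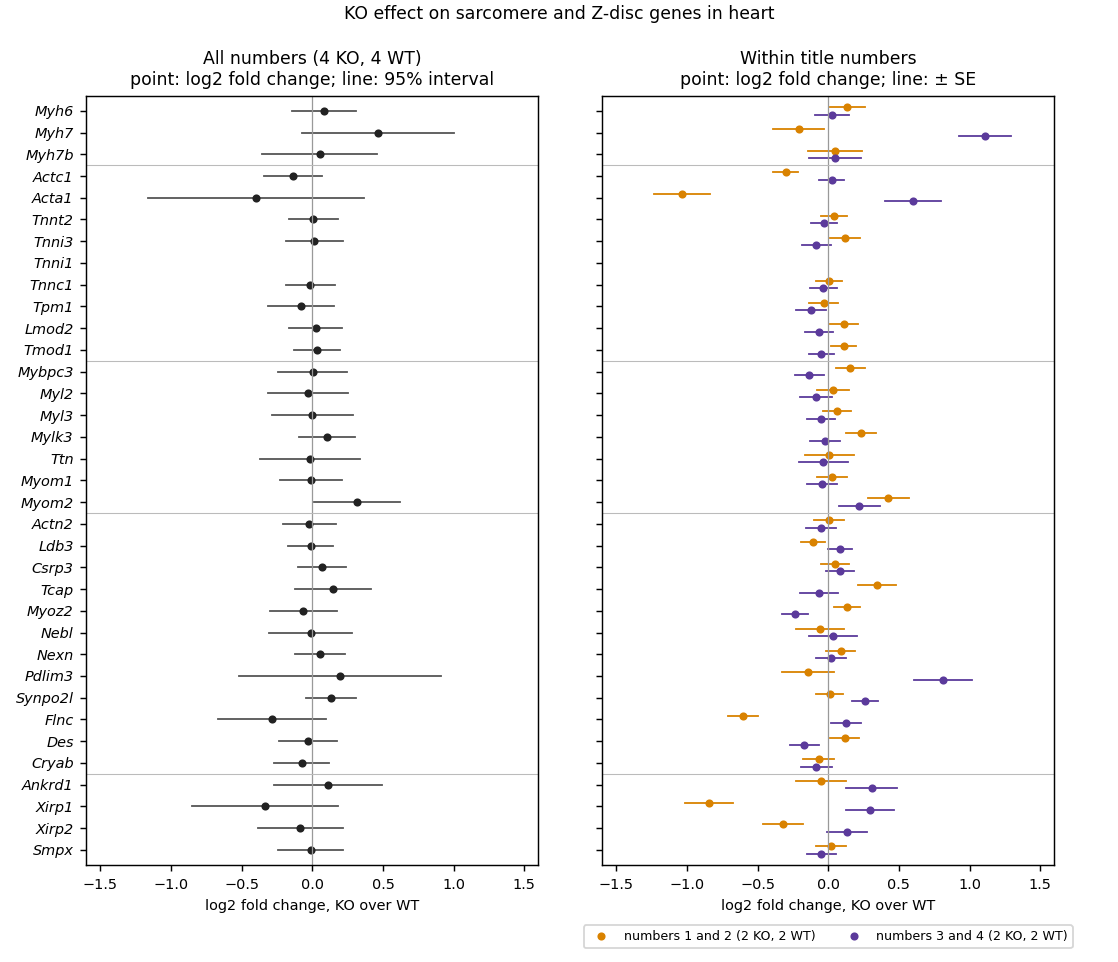
Log2 fold change of KO over WT hearts for the 34 tested genes, ordered by role. The left panel shows all 8 hearts with 95% intervals, where Myom2 has the interval that leaves out 0, and the right panel shows the values within numbers 1 and 2 and within numbers 3 and 4 with lines of ± SE, which lie on opposite sides of 0 for 26 genes.

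Myom2, which encodes M-protein, a crosslinker of the M-band (ENSMUSG00000031461, chr8:15057653-15133541, plus strand, GRCm38), had 695, 949, 788 and 1009 CPM in KO hearts and 599, 625, 826 and 715 CPM in WT hearts. KO values were the higher within each number except 3, and the groups overlapped. The log2 fold change was 0.32 ± 0.14 (SE; 95% interval 0.014 to 0.617; edgeR adjusted p = 0.9997). Its partner Myom1, myomesin, had 1092, 1259, 1183 and 1406 CPM in KO and 1199, 1105, 1312 and 1360.2 CPM in WT, with a log2 fold change of −0.01 ± 0.10 and a 95% interval of −0.232 to 0.211. For Myom1 the groups overlapped over most of their range.

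The largest fold change in either direction among the 34 genes was that of Myh7, the slow heavy chain of the fetal ventricle (ENSMUSG00000053093, chr14:54970684-54994626, minus strand). It had 135, 157, 282 and 201 CPM in KO hearts and 139, 198, 124 and 100.4 CPM in WT hearts. The highest values were those of KO hearts 3 and 4, while KO hearts 1 and 2 lay within the WT range. The log2 fold change was 0.46 ± 0.24 (95% interval −0.072 to 1.0; edgeR adjusted p = 0.9997). Part of Myh7, 1149 bases of its exons, is also covered by antisense genes, among them Mhrt, and whether reads were assigned by strand is not given in the sources used here.

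Acta1, the skeletal actin that the heart also makes before birth (ENSMUSG00000031972, chr8:123891769-123894751, minus strand), had 160.3, 133, 175 and 153 CPM in KO hearts and 366, 236, 128 and 88.7 CPM in WT hearts. All KO values lay inside the WT range, and WT hearts 1 and 2 were the highest of all (SD 17.7 CPM in KO and 124 CPM in WT). The log2 fold change was −0.40 ± 0.35 (95% interval −1.164 to 0.369; edgeR adjusted p = 0.9997), and without WT replicate 1 it was 0.04. Actc1 (ENSMUSG00000068614, chr2:114047282-114053548, minus strand) had 5863, 5487, 6249 and 6942 CPM in KO hearts and 7154, 6817, 6368 and 6606 CPM in WT hearts, with a log2 fold change of −0.13 ± 0.09 (95% interval −0.34 to 0.07). KO heart 4 was inside the WT range and the other KO hearts were below it.

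Flnc, the muscle filamin that crosslinks actin at the Z-disc (ENSMUSG00000068699, chr6:29433256-29461883, plus strand), had 242, 294, 259 and 279 CPM in KO hearts and 398, 416, 239 and 254 CPM in WT hearts. Xirp1, an actin-binding protein of the intercalated disc (ENSMUSG00000079243, chr9:120013755-120023598, minus strand), had 113, 149, 138 and 174 CPM in KO hearts and 193, 276, 122 and 132 CPM in WT hearts. In both genes WT hearts 1 and 2 were higher than every KO heart, and WT hearts 3 and 4 lay within or close to the KO range. Their log2 fold changes were −0.28 ± 0.17 for Flnc (95% interval −0.667 to 0.1) and −0.34 ± 0.23 for Xirp1 (95% interval −0.855 to 0.182).

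The other members among the 10 with the smallest p had small values. Synpo2l, which binds actin and actinin, had a log2 fold change of 0.13 ± 0.08 (95% interval −0.045 to 0.307), Tcap of 0.14 ± 0.12 (−0.124 to 0.413), Mylk3 of 0.10 ± 0.09 (−0.093 to 0.301) and Cryab of −0.08 ± 0.09 (−0.27 to 0.117). The edgeR adjusted p was 0.9997 for each of the 10. Myh6 (chr14:54941921-54966927, minus strand) had 10355, 12710.0, 10158 and 12296 CPM in KO hearts and 11255, 9739, 10659 and 11386 CPM in WT hearts. Its log2 fold change was 0.08 ± 0.10 with a 95% interval of −0.146 to 0.308, and the highest and lowest hearts were KO heart 2 and WT heart 2.

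Isoform pairs were compared as log2 ratios of reads within a library, which do not depend on the scaling between libraries. Of 6 pairs, 1 had ratios that did not overlap between the groups. Myom2 had 636, 753, 666 and 718 reads per 1000 reads of Myom1 in KO hearts, against 499.8, 565, 629 and 526 in WT hearts, a difference of 0.32 between the mean log2 ratios (−0.53 ± 0.109 in KO and −0.85 ± 0.144 in WT, SD, n = 4 each). The exact two-sided permutation test gave p = 0.0286, the smallest that 4 against 4 samples allow, and 0.171 after adjustment over the 6 pairs, so the difference did not pass. Its size was 0.38 within numbers 1 and 2 and 0.26 within numbers 3 and 4.

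Myh7 had 13, 12.3, 27.7 and 16.4 reads per 1000 reads of Myh6 in KO hearts and 12.3, 20.4, 11.6 and 8.82 in WT hearts. KO heart 3 was the highest and WT heart 4 the lowest, and the groups overlapped (difference 0.38, exact permutation p = 0.343, adjusted 0.914). Acta1 had 27.3, 24.2, 28.1 and 22 reads per 1000 reads of Actc1 in KO hearts and 51.1, 34.6, 20.03 and 13.4 in WT hearts (difference −0.05, exact permutation p = 0.886). Here all KO ratios lay inside the WT range. Xirp1 against Xirp2, its paralog at the intercalated disc, gave 149, 134, 111 and 147 reads per 1000 in KO hearts and 173, 226, 108 and 123 in WT hearts (difference −0.17, exact permutation p = 0.571). Xirp2 itself had 758, 1112, 1239 and 1182 CPM in KO hearts and 1116, 1220.4, 1137 and 1073 CPM in WT hearts, with KO heart 1 the lowest.

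Myh7b, a myosin gene best known as the host of miR-499, had 27.7, 41.2, 40.9 and 49.4 CPM in KO hearts and 27.5, 38.9, 46.6 and 40.8 CPM in WT hearts, and its ratio to Myh6 differed by −0.03 (exact permutation p = 0.914). Tnni1, the slow skeletal troponin that the fetal heart uses before Tnni3, was at trace level, with 19 reads over the 4 KO hearts and 15 over the 4 WT hearts. Its ratio to Tnni3 differed by 0.27 (exact permutation p = 0.743). Tnni3 itself had a log2 fold change of 0.02 ± 0.09 with a 95% interval of −0.189 to 0.219.

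The genotype difference was then read within hearts 1 and 2 and within hearts 3 and 4, which had stood apart in the atrial markers. The values of the 34 tested genes had the same sign in both sets for 8 genes (6 higher and 2 lower in KO), while 16 were higher within numbers 1 and 2 and lower within numbers 3 and 4, and 10 the reverse. The share of opposite signs over all tested genes was not counted, so these counts are not a trait of the members. These sets hold 2 KO and 2 WT hearts each, and a fit of all 8 hearts gave both contrasts with a shared spread. In these contrasts 7 members were above and 7 below all WT values within numbers 1 and 2, beside 17.9% and 18.2% of tested genes. The 7 below include Tnni1, which was not tested. Within numbers 3 and 4 it was 8 above and 4 below, beside 17.4% and 17.8%.

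Within numbers 3 and 4, Myh7 was higher in KO hearts: 282 and 201 CPM in KO against 124 and 100.4 CPM in WT. It was the 1 member of 34 past the threshold (log2 fold change 1.11 ± 0.18, edgeR adjusted p = 0.0432), beside 0.12% of all genes. The call held in edgeR with RLE scaling (adjusted p = 0.0397), without a filter and in a separate fit of these 4 hearts (0.0364), and in DESeq2 (0.0320). The log2 fold change was 1.33 without KO replicate 4 and 1.11 without WT replicate 1 or WT replicate 2. The call was lost in limma-voom (adjusted p = 0.0515) and in edgeR without KO replicate 1 (0.0698), KO replicate 2 (0.0736), KO replicate 3 (0.192), WT replicate 3 (0.299) or WT replicate 4 (0.812). In the same 4 hearts 6 of the 9 atrial markers were also called higher in KO, with a median log2 fold change of 2.92 and a range of −0.02 to 3.61 over the list. Myl7, the atrial regulatory light chain, had 101 and 121 CPM in KO hearts 3 and 4 and 5.04 and 13.1 CPM in WT hearts 3 and 4. Red blood cell genes moved with them, with a median of 2.09 over 5 genes, 0 of them called. The 5 mesothelial markers, which share Upk3b with the atrial list, had a median of 0.80, also with 0 called. The part of blood or of mesothelial cells in the Myh7 value was not tested. With a covariate for the average log2 level of the atrial markers, chosen after seeing the data, the Myh7 value was 2.29 ± 0.36 (edgeR adjusted p = 0.0434). The slope of this covariate comes from differences between the 2 hearts of each genotype and set. The level was 5.63 and 6.08 in KO hearts 3 and 4 and 3.02 and 4.04 in WT hearts 3 and 4. The value is thus extrapolated between these levels, and the part of atrial tissue in the Myh7 value was not tested.

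At an unadjusted p under 0.05, edgeR gave 4 members higher and 1 lower in KO within numbers 3 and 4, beside 3.39% and 2.15% of all genes. Besides Myh7 these were Pdlim3, with 21.9 and 23.6 CPM in KO against 9.46 and 16.4 CPM in WT (0.81 ± 0.21, adjusted p = 0.379), and Acta1, with 175 and 153 CPM in KO against 128 and 88.7 CPM in WT (0.60 ± 0.20, adjusted p = 0.688). Synpo2l (0.26 ± 0.10) and, with a lower value in KO, Myoz2 (−0.24 ± 0.09) made up the 5. All of these but Myh7 did not pass the adjusted threshold in edgeR.

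**Figure D3:**
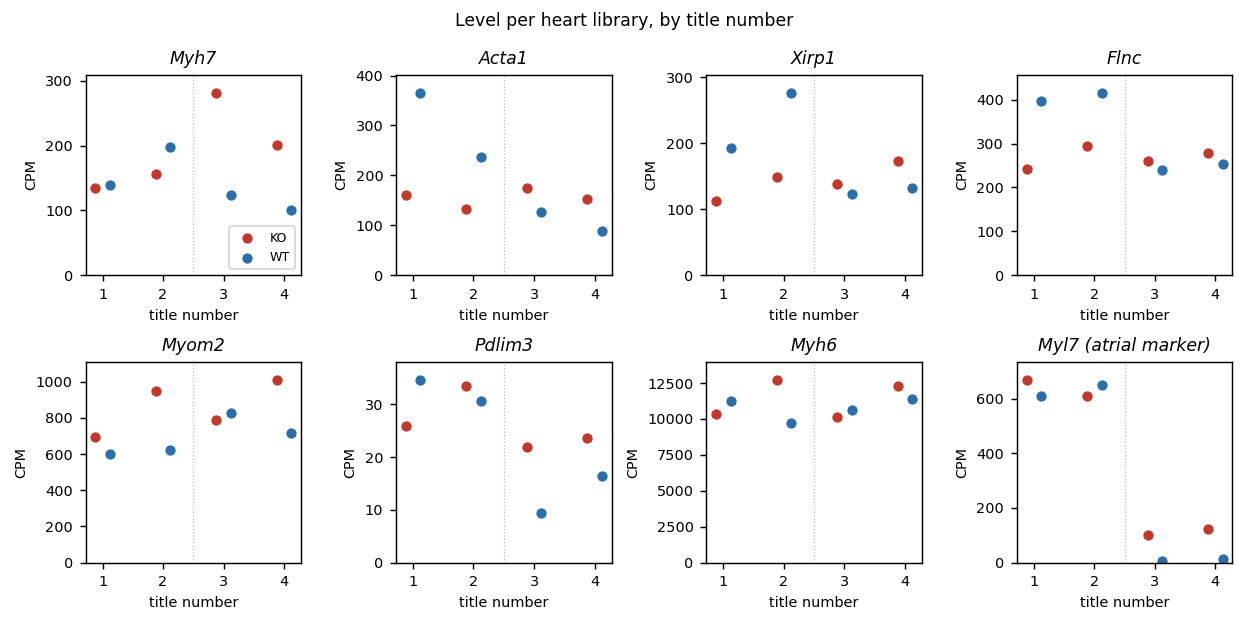
CPM of 7 members and of the atrial marker Myl7 in each heart, by the number in the sample title, with KO and WT points side by side and a dotted line between numbers 2 and 3. Acta1, Xirp1 and Flnc have their highest points in WT hearts 1 and 2, Myh7 has its highest in KO heart 3, and Myl7 drops to 5.04 and 13.1 CPM in WT hearts 3 and 4.

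Within numbers 1 and 2 the members with the largest differences were lower in KO hearts. Acta1 had 160.3 and 133 CPM in KO against 366 and 236 CPM in WT (−1.04 ± 0.20, edgeR adjusted p = 0.200), Xirp1 had 113 and 149 CPM in KO against 193 and 276 CPM in WT (−0.84 ± 0.17, adjusted p = 0.266) and Flnc had 242 and 294 CPM in KO against 398 and 416 CPM in WT (−0.60 ± 0.10, adjusted p = 0.200). None of the 34 members passed in edgeR, beside 0.00706% of all genes, and DESeq2 called 1 (Flnc) and limma-voom 0. At an unadjusted p under 0.05 edgeR gave 3 higher (Myom2 0.43 ± 0.15, Tcap 0.35 ± 0.13 and Mylk3 0.23 ± 0.11) and 5 lower, beside 3.48% and 3.9% of all genes. Actc1 (−0.30 ± 0.09) and Xirp2 (−0.32 ± 0.14) were the other 2 of the 5. A single member passed when 1 library was left out in 3 cases: Flnc without KO replicate 2 (adjusted p = 0.0249), Xirp1 without WT replicate 1 (0.0310) and Acta1 without WT replicate 2 (0.0483). In these hearts the 9 atrial markers had a median of 0.30, the 6 adipocyte markers −1.49, the 5 blood markers −0.62 and the 5 mesothelial markers −0.33, with 0 called in each list. KO heart 1, with fewer reads from long transcripts, is in this set: Tcap, with 948 bases of exons, had 868 CPM in KO heart 1 and 624 CPM in KO heart 2, and Xirp2, with 11979 bases, had 758 and 1112 CPM. The part of transcript length or of these cells in the values was not tested.

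The difference between the sets was itself tested as numbers 1 and 2 minus numbers 3 and 4. No member passed in edgeR (7 genes in all did, 0.0494% of those tested). At an unadjusted p under 0.05, 2 members were higher and 7 lower, beside 2.88% and 3.64%. The 3 members with the smallest p were Acta1, with a difference of −1.64 ± 0.28 (edgeR adjusted p = 0.0814), Myh7 with −1.32 ± 0.26 (adjusted p = 0.181) and Flnc with −0.73 ± 0.15 (adjusted p = 0.200). Xirp1 (−1.14 ± 0.24) and Pdlim3 (−0.96 ± 0.28) had larger differences than Flnc and did not pass. DESeq2 called Flnc and limma-voom called 0 members. Calls appeared without KO replicate 2 (Flnc, adjusted p = 0.0330, and Xirp2, 0.0489), without WT replicate 1 (Myh7 and Xirp1, both 0.0487) and without WT replicate 2 (Acta1, 0.00876). With the atrial covariate, which is extrapolated here too, Myh7 passed (−2.19 ± 0.31, adjusted p = 0.0186). Without the filter on low counts edgeR called 5 members (Acta1, Myh7, Xirp1, Pdlim3 and Flnc).

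Genes of the same structures that are not among the 35 did not pass in heart either. Of 52 other sarcomere and Z-disc genes 49 were tested and 0 were called, with 0 higher and 2 lower at an unadjusted p under 0.05, a share near the 3.2% of all genes: Capza1, an actin capping subunit (−0.33 ± 0.10), and Tpm4, a non-muscle tropomyosin (−0.27 ± 0.09). Of 29 costamere and intercalated disc genes 0 were called, and the smallest p belonged to the desmosomal cadherins Dsc2 (0.35 ± 0.13) and Dsg2 (0.17 ± 0.08). Of 20 regulators of cardiac muscle transcription 0 were called, with Rcan1, a calcineurin inhibitor (−0.33 ± 0.19), and Esrra, a nuclear receptor (0.09 ± 0.07), nearest. DESeq2 and limma-voom were run for the 35 members and not read for these lists. Within numbers 3 and 4, 1 of the 49 was called, Mybphl, a relative of myosin-binding protein C known from the atria (3.46 ± 0.38, edgeR adjusted p = 0.00179), beside 0.12% of all genes.

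In WT mice, all 34 members that could be tested were higher in heart than in gWAT, beside 33.9% of 16014 genes, with a median log2 difference of 10.82. The filter keeps a gene that is high in either tissue, and in gWAT alone 24 of the 35 members passed it. The other tested members entered through their heart counts. Their direction was thus fixed by the filter, and the count of 34 is no test of them. The smallest differences were those of Cryab (2.70 ± 0.15), Acta1 (3.85 ± 0.41), Flnc (3.91 ± 0.26) and Pdlim3 (4.22 ± 0.42), and the largest was that of Tnnt2 (11.91 ± 0.24). Tnni1 was the member with overlapping levels in the tissues. In gWAT the 35 genes held 0.0423 ± 0.00313% of reads in KO and 0.0458 ± 0.00199% in WT (SD, n = 3 each), and the 5 most abundant took 81.7 to 87.7% of these.

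**Figure D4:**
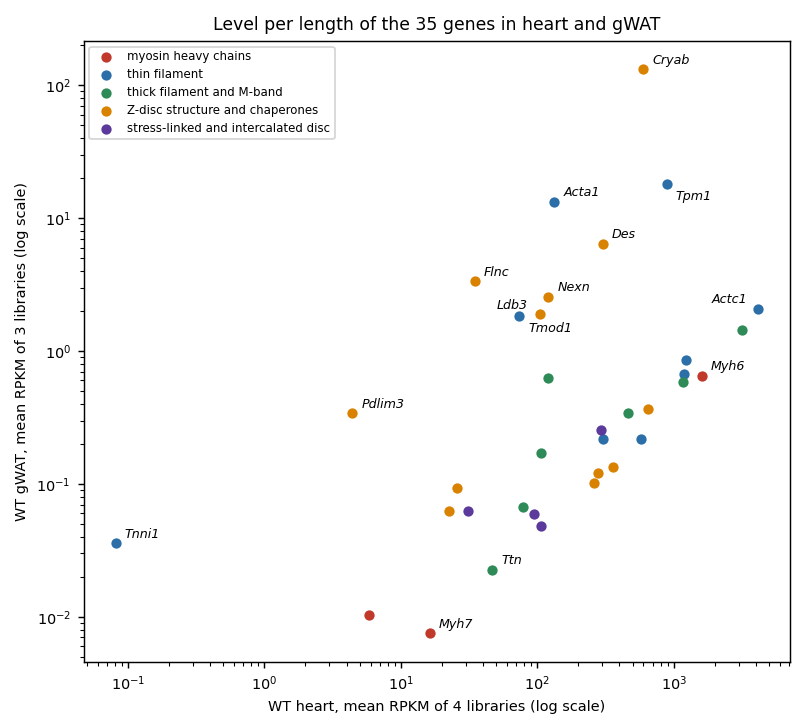
Mean RPKM of the 35 genes in WT heart (horizontal, 4 libraries) and in WT gWAT (vertical, 3 libraries), both on log scales and coloured by role. Cryab, at 598 RPKM in heart and 132 RPKM in gWAT, lies far above the genes with a like level in heart, and Myh7 is the lowest in gWAT.

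The gWAT levels were carried by a few genes. Cryab averaged 117 RPKM in KO gWAT and 132 RPKM in WT gWAT, Acta1 20.5 RPKM in KO and 13.3 RPKM in WT, and Tpm1 15.8 RPKM in KO and 18 RPKM in WT. Des averaged 5.84 RPKM in KO and 6.39 RPKM in WT, Flnc 3.47 RPKM in KO and 3.35 RPKM in WT and Nexn 3.79 RPKM in KO and 2.56 RPKM in WT. The genes that dominate in heart were at trace level: Actc1 averaged 1.96 RPKM in KO and 2.08 RPKM in WT, Myh6 0.708 RPKM in KO and 0.652 RPKM in WT, and Ttn 0.0202 RPKM in KO and 0.0227 RPKM in WT. Their log2 differences between WT heart and WT gWAT were 11.50 for Actc1, 11.79 for Myh6 and 11.54 for Ttn. Where these trace reads came from was not tested. The fast skeletal myosins Myh1 and Myh4 were at 0.132 to 0.514 and at 0 CPM in KO gWAT and at 0.303 to 0.414 and 0 to 0.182 CPM in WT gWAT.

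Between KO and WT gWAT 1 of 24 tested members passed, beside 5.49% of 15200 genes. Pdlim3 (ENSMUSG00000031636, chr8:45885461-45919548, plus strand) had 4.49, 4.88 and 3.8 CPM in KO gWAT against 1.73, 1.19 and 2.36 CPM in WT gWAT, and every KO library was above every WT library. The log2 fold change was 1.31 ± 0.28 (edgeR adjusted p = 0.0391) on 203 reads in KO and 83 reads in WT. The call held in edgeR with RLE scaling (adjusted p = 0.0385), without a filter (0.0082) and without WT replicate 1 (0.0258). DESeq2 (0.00214) and limma-voom (0.0473) made it too. In edgeR it was lost without KO replicate 1 (adjusted p = 0.128), KO replicate 3 (0.134), KO replicate 4 (0.113), WT replicate 3 (0.0871) or WT replicate 4 (0.121). It was also lost in the fit of all 14 libraries (0.0849) and with the replicate block (0.111). Markers of other cell types differed in the same libraries, in some lists in both directions. The 5 mesothelial markers had a median of 1.12, with 2 called and a summed level of 304 to 511 CPM in KO and 111 to 242 CPM in WT. The 8 smooth muscle markers summed to 542 to 653 CPM in KO and 418 to 689 CPM in WT. Of 6 adipocyte markers 2 were called higher (median 0.58, from −0.45 to 2.23), summing to 15184 to 15815 CPM in KO and 9608 to 16483 CPM in WT. Of 5 macrophage markers 2 were called lower (median −0.61), summing to 812 to 930 CPM in KO and 966 to 2112 CPM in WT. Of 6 brown fat markers 5 were tested and 2 called lower (median −0.30, from −3.06 to 0.47). The 6 fibroblast markers had a median of −0.58 (from −1.03 to 0.56) with 0 called. No mesothelial, smooth muscle, adipocyte, macrophage or fibroblast marker was at 0, and the part of any of these cells in the Pdlim3 value was not tested.

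The other members named in gWAT did not pass. Myom1 had 3.63, 3.21 and 3.48 CPM in KO and 4.56, 8.76 and 6.31 CPM in WT (−0.93 ± 0.26, edgeR adjusted p = 0.0758), and DESeq2 called it. Nexn had 14.5, 15.2 and 13.8 CPM in KO and 12.2, 7.57 and 9.64 CPM in WT (0.57 ± 0.18, adjusted p = 0.105). Acta1 had 41.4, 28.3 and 24.9 CPM in KO and 23.7, 16.8 and 20.6 CPM in WT (0.63 ± 0.21, adjusted p = 0.118). In these 3 genes the groups did not overlap, nor did they for Mylk3, at 1.12 to 1.73 CPM in KO and 0.552 to 1.09 CPM in WT (1.02 ± 0.38, adjusted p = 0.151). Nebl, at 0.773 to 2.12 CPM in KO and 0.688 to 1.31 CPM in WT, overlapped (0.66 ± 0.44, adjusted p = 0.410).

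Of the 24 tested members, 5 were above all WT gWAT values in KO and 1 below, beside 13.3% and 14.5% of tested genes. At an unadjusted p under 0.05 in edgeR, 4 of the 24 were higher and 1 lower, beside 10.4% and 12.7%. Without WT replicate 1 the count of called members was 5 (Pdlim3, Myom1, Nexn, Acta1 and Ldb3), and without each of the other 5 libraries it was 0. Skeletal muscle markers, 12 genes, summed to 19.4 to 28.3 CPM in KO and 32.3 to 39.9 CPM in WT, with 3 of the 12 tested. Pvalb, which was called lower (−1.79 ± 0.24), averaged 3.67 CPM in KO and 12.7 CPM in WT. Myl1 (−0.27 ± 0.19) and Actn3 (0.80 ± 0.55) did not pass and had opposite signs. The part of skeletal muscle in the Acta1 and Myom1 values was not tested. Of the other genes of these structures in gWAT, Actn1, the non-muscle actinin, fell (83.2 ± 3.41 CPM in KO and 159 ± 37.4 CPM in WT, −0.93 ± 0.17, adjusted p = 0.0285), and Hspb7, a small heat shock protein, rose (106 ± 20.6 CPM in KO and 59.9 ± 12.6 CPM in WT, 0.83 ± 0.19, adjusted p = 0.0486), 2 of 36 tested. Jup, plakoglobin (0.66 ± 0.11, adjusted p = 0.0253, 1 of 23), and Thra, a thyroid hormone receptor (0.51 ± 0.09, adjusted p = 0.0285, 1 of 15), also rose in edgeR. These counts lie near the 5.49% of all genes called in gWAT.

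**Figure D5:**
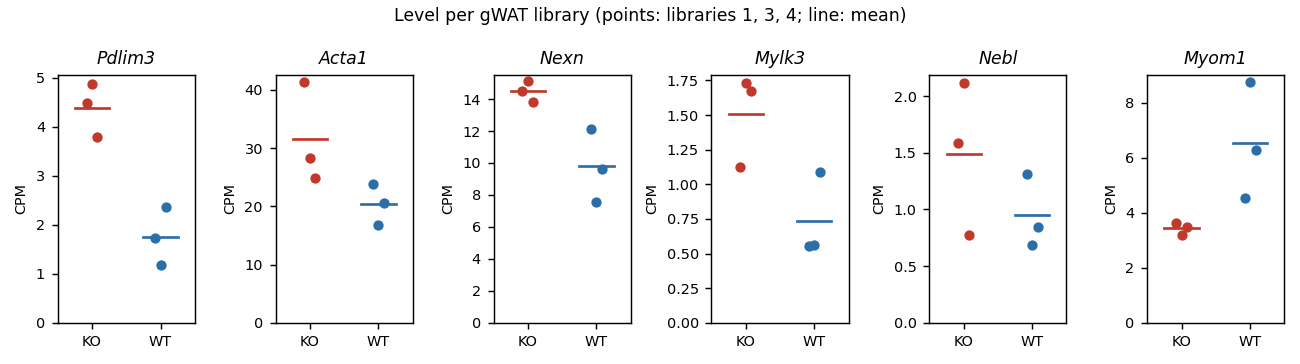
CPM of the called member Pdlim3 and of the 5 members next in p in each gWAT library, with KO left of WT, a point per library and a line at the mean. KO points lie above WT points for Pdlim3, Acta1, Nexn and Mylk3 and below them for Myom1, and the points overlap for Nebl.

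Whether the genotype effect differed between heart and gWAT was tested in a fit of all 14 libraries. The labels do not say whether a heart and a gWAT sample of equal number came from the same mouse. This fit did not pair them, and an alternative fit paired them by number. Of the 34 members 0 passed in edgeR, beside 1.15% of genes, 3 had an unadjusted p under 0.05, beside 15.2%, DESeq2 called 1 (Myom1) and limma-voom 0. Members that passed the filter through heart alone had few gWAT reads here, such as Myh7 with 9 in KO and 3 in WT. Myom1 had the smallest p (difference of the log2 fold changes, heart minus gWAT, 0.92 ± 0.24, adjusted p = 0.0744), then Mylk3 (−0.91 ± 0.29, adjusted p = 0.134) and Nexn (−0.51 ± 0.19, adjusted p = 0.204). Leaving out gWAT WT replicate 1 called 3 members (Myom1 0.00399, Ldb3 0.0141 and Nexn 0.0108), and leaving out gWAT KO replicate 1 called Tmod1 (0.0464). Pdlim3 rose in KO gWAT in edgeR and did not pass in heart (0.19 ± 0.32, 95% interval −0.521 to 0.909), but it was not called in this test of the difference.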

How the data were processed

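The deposited values are raw counts of reads for each Ensembl gene as the authors left them, whole and not normalized, for 14 libraries. Per the submitters' processing notes the tools were FastQC, Picard, Trimmomatic 0.32, HISAT2 2.1.0, HTSeq 0.11.0 and limma, and the build was mm10, with neither roles nor order stated. Which annotation release and strand setting were used is not given in the sources used here. The 13 members whose exons overlap another gene in GENCODE M21 (GRCm38) are therefore uncertain, among them Tmod1, Myh7, Cryab, Myh6 and Ttn. The overlap was 1287 of 3946 exon bases in Tmod1 and 252 of 1479 in Cryab, but 114 of 6726 in Myh6 and 453 of 116825 in Ttn.

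Counts were tested per tissue with edgeR 4.0.16 (R 4.3.3; TMM scaling, filterByExpr, quasi-likelihood F test, Benjamini-Hochberg over all genes tested, threshold 0.05). SE is the fold change divided by the square root of F. Number sets were contrasts in a fit of 8 hearts, tissue contrasts in a fit of 14 libraries. Isoform ratios used a pseudocount of 0.5 reads and exact permutation tests in SciPy 1.17.1 (Python 3.11.15, pandas 2.3.3, matplotlib 3.10.9). Scripts were tested on simulated data. No libraries within a group were duplicates (lowest chi-square per degree of freedom 3.739). Equal numbers were checked for pairing: deviations from the group mean of same-numbered KO and WT hearts correlated at 0.258, 0.374, 0.361 and 0.278, while gWAT gave −0.114, −0.218 and 0.029. Hearts of unequal number within a set correlated alike, at 0.172 (KO 1, WT 2), 0.465 (KO 2, WT 1), 0.273 (KO 3, WT 4) and 0.329 (KO 4, WT 3). Pairs by number could therefore not be told from the number sets. The hearts were treated as paired in an alternative fit only.

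Full statistics were given for called members, the 10 smallest p in heart, 5 in gWAT, 3 in the tests of differences, both genes of each pair and up to 6 called or else 2 genes of each list. Other genes were named with their values known. The members and lists were chosen with earlier results of these data known. Alternatives were RLE scaling, no filter, DESeq2 1.42.0, limma-voom (limma 3.58.1), a threshold of 0.1, a fit of all 14 libraries, separate fits of 4 hearts, number set or replicate block, leaving out each library, a pseudocount of 5, the longest transcript as length, nuclear reads and, chosen after seeing the data, an atrial covariate.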

Additional observations from a re-analysis of the deposited data

Results flagged for a closer look

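A gap test within each group of 4 hearts (Dixon's 95% critical value) was run on the levels of the members, their share of reads and the isoform ratios, 84 groups in all, and 2 groups held a library far from the others, where chance gives about 1 in 20 groups. Tnni1 was at 0.873 CPM in KO heart 3, while the other KO hearts were at 0.156 to 0.264 CPM, on 19 reads over the 4 libraries. Tcap was at 868 CPM in KO heart 1, while the other KO hearts were at 605 to 640.0 CPM. KO heart 1 was also the library with the difference of −0.284 between long and short transcripts, and the part of this in the Tcap value was not tested.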

How the results depend on the processing

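Members called in KO against WT hearts numbered 0 under every alternative run, the replicate block included, and members called between heart and gWAT in WT numbered 34 under all. Counts of called members elsewhere moved, and the cause was not tested. In gWAT the count of 1 became 3 without a filter, 2 with DESeq2, 2 at a threshold of 0.1, 3 in the fit of all libraries (Mylk3, Myom1 and Nexn, without Pdlim3) and 0 with the replicate block (Pdlim3 1.34, adjusted p = 0.111; the gWAT numbers were not read as pairs), and ranged from 0 to 5 when a library was left out. Within numbers 1 and 2 the count of 0 became 6 without a filter and 1 with DESeq2 (0 to 1 with a library left out). Within numbers 3 and 4 the count of 1 became 3 without a filter and 0 with limma-voom (0 to 1). Between the sets the count of 0 became 5 without a filter, 1 with DESeq2, 1 at a threshold of 0.1 and 1 with the atrial covariate (0 to 2). Between tissues the count of 0 became 1 without a filter, 1 with DESeq2 and 1 at a threshold of 0.1 (0 to 3). Leaving out a heart in the number sets left a cell with a lone sample, assumed to vary like the others.

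Single genes turned in 4 cases: Acta1 in heart without WT replicate 1 (0.042), where its values ran from −0.646 to 0.042 with a library left out; Myh7 within numbers 1 and 2 without WT replicate 2 (0.072; from −0.445 to 0.072) and with the atrial covariate (0.097); and Flnc within numbers 3 and 4 with the atrial covariate (−0.019). The differences of log2 isoform ratios turned or moved between the sets: within numbers 1 and 2 they were −0.322 for Myh7/Myh6 and −0.948 for Tnni1/Tnni3, and within numbers 3 and 4 they were 1.073 for Myh7/Myh6, 1.489 for Tnni1/Tnni3, 0.023 for Myh7b/Myh6, 0.599 for Acta1/Actc1 and 0.155 for Xirp1/Xirp2. With a library left out they ran from −0.206 to 0.09 for Myh7b/Myh6, −0.237 to 0.599 for Tnni1/Tnni3, −0.377 to 0.265 for Acta1/Actc1 and −0.328 to 0.029 for Xirp1/Xirp2, and from 0.275 to 0.385 for Myom2/Myom1. Myh7/Myh6 ran from 0.124 to 0.604.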
